A study of Homo sapiens with 9 samples.

Results

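Matrix genes of MDA-MB-453 cells, an established human breast cancer cell line, are described here across attached culture, forced suspension and forced suspension with a drug. The genes were chosen by name and by a minimum count, with earlier results of these data known. Names were those of collagen chains, laminin chains, matrix metalloproteinases (MMP), ADAMTS proteases, tissue inhibitors of metalloproteinases (TIMP) and lysyl oxidases, together with *FN1*, *PAPLN*, *SPARC*, *THBS1*, *AGRN*, *HSPG2*, *NID1*, *P4HA1*, *P4HA2*, *PLOD1* and *PLOD2*. A gene was kept when it had at least 10 counts in at least 3 libraries. Of 117 symbols with such names, 47 met the minimum, and all 47 were among the 15528 genes tested out of 59452 in the gene table. The other 70 were below the minimum, and 21 of them had no count in any library.

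The 9 RNA-seq libraries fell into 3 groups of 3, and all cells were of WT genotype, grown in DMEM with fetal bovine serum and collected at 48 hours. The attached group was on regular plates with vehicle (DMSO), the suspended vehicle group was on poly-HEMA-coated plates, to which cells cannot attach, with vehicle, and the suspended AT-0174 group was on coated plates with AT-0174 at 10 µM, a compound that blocks both TDO2 and IDO1, enzymes of tryptophan breakdown. The study's methods describe biological triplicates of this one cell line, so the p-values cover the spread between cultures of a single line. No attached group with AT-0174 was analysed here, so an effect of the drug that depends on attachment cannot be told apart from one that does not.

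Collagens are triple helices that form fibrils, sheets and anchoring structures. Type IV collagen and laminin, a heterotrimer of an α, a β and a γ chain, form the 2 networks of the basement membrane, on which epithelial cells sit and to which integrins bind. FACIT collagens attach to the surface of fibrils. Prolyl and lysyl hydroxylases modify collagen chains in the endoplasmic reticulum, lysyl oxidases crosslink them outside the cell, MMPs and ADAMTS proteases cut matrix proteins, and TIMPs inhibit the MMPs.

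The libraries held between 36649997 and 48019126 estimated counts, and the 47 genes took between 0.407% and 0.443% of them. A count of 0 allows up to 3 counts, which is 0.0625 to 0.0819 CPM (counts scaled to library size) depending on the library, for counting error only. The defining markers were those of luminal epithelium: 10 of 10 luminal markers reached 1 TPM (a level per transcript length, scaled to the library), with a summed level of 5722 to 5955 TPM in attached cells, 6801 to 6869 in suspended vehicle cells and 6462 to 6986 with AT-0174. Of 10 fibroblast markers, 0 reached 1 TPM and 3 were at 0 counts in every library, and their summed level was at most 0.448 TPM. Among 4 basal markers 1 reached 1 TPM, of 3 endothelial markers 0 did, and among 3 leukocyte markers 1 did. The summed luminal level was thus higher in every suspended library than in any attached library, and its part in the results below was not tested.

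The sequences before the transcription start are shown for 5 of the genes, so that chains of one laminin can be set beside a gene with a larger fall and one that was higher. *LAMA5*, *LAMB1* and *LAMC1* encode the 3 chains of one laminin and were all lower in suspension, *PAPLN* had the largest fall, and *THBS1*, the most abundant of the 47, was higher. *COL12A1*, with the next largest fall, is not shown. RefSeq promoter entries (GRCh38.p14) were matched for 32 of the 47 genes, in 43 entries. The stretches are those before the RefSeq start that lie outside the gene in GENCODE 44, at chr20:62367313-62367562 (minus strand, 250 bases) for *LAMA5*, chr7:108003214-108003411 (minus strand, 198 bases) for *LAMB1*, chr1:183023170-183023419 (plus strand, 250 bases) for *LAMC1*, chr14:73237256-73237496 (plus strand, 241 bases) for *PAPLN* and chr15:39580829-39581078 (plus strand, 250 bases) for *THBS1*. Capitals mark matches on either strand to any of 6 motifs, the AP-1 site TGANTCA, the TEAD core GGAATG, the AHR core GCGTG, the ZEB1 E-box CACCTG, the GC box GGGCGG and the TATA box TATAAA. Adjacent matches run together, and in *THBS1* the AHR core overlaps a GC box.
LAMA5: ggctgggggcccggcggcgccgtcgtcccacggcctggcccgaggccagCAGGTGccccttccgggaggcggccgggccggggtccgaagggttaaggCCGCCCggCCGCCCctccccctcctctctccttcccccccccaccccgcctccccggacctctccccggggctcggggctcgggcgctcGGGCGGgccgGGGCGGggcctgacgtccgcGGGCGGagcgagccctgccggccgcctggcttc
LAMB1: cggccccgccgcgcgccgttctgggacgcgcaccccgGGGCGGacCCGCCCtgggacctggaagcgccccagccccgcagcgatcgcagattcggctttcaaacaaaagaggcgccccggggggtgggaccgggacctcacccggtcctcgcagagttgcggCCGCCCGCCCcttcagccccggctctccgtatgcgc
LAMC1: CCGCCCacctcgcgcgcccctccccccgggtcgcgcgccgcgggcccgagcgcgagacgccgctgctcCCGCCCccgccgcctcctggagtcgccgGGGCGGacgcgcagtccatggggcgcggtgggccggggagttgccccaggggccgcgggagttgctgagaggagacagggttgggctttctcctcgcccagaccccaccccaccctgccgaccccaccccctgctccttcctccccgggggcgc
PAPLN: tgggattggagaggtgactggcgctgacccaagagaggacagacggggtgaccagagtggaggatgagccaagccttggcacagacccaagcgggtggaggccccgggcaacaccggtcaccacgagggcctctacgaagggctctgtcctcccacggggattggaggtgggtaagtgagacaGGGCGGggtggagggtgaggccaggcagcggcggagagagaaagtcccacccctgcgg
THBS1: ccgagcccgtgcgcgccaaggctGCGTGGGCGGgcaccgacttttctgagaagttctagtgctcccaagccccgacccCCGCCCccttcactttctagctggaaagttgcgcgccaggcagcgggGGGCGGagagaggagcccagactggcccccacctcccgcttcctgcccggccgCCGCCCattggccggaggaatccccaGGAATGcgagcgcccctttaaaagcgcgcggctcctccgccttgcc

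The 3 laminin stretches were 75.3% to 82.8% G or C, against 66.0% in *PAPLN* and a median of 58% over the 250 bases of all 35116 promoter entries. They held 5, 4 and 3 GC boxes in the order *LAMA5*, *LAMB1* and *LAMC1*, and *LAMA5* held 1 ZEB1 E-box. *THBS1* held 4 GC boxes, 1 TEAD core and 1 AHR core, and the *PAPLN* stretch shown held 1 GC box. *PAPLN* also has RefSeq promoter sequence that is not shown. It held matches to the TEAD core, the AHR core, the ZEB1 E-box and the GC box. Over all entries the GC box was present in 42.6%, against 32 of the 43 entries of the matrix genes (74.4%), which also had a higher median G or C content (65.2%). The AHR core was present in 32.2% of all entries and 37.2% of those of the matrix genes, the ZEB1 E-box in 17.5% and 20.9%, the TEAD core in 11.9% and 11.6%, the TATA box in 10.7% and 6.98%, and the AP-1 site in 6.57% and 2.33%, the last being that of *LAMB3*. These are matches of letters, described without a test.

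Per length, most of the matrix RNA came from few genes. On the TPM scale, 31 of the 47 genes reached a mean of 1 over the 9 libraries, 14 reached 10 and 3 reached 100. *THBS1*, which encodes the adhesive glycoprotein thrombospondin 1, was first at a mean level of 610 TPM, followed by *LAMB2* (laminin β2) at 257 and *AGRN* (the basement membrane proteoglycan agrin) at 153. *TIMP1* at 84.9, *LAMA5* at 78.9 and *PLOD1*, a lysyl hydroxylase, at 73.9 TPM came next. In attached cells the levels of *TIMP1* (90.1 ± 4.32) and *LAMA5* (101.8 ± 15.5, SD, n = 3) overlapped in their libraries. The level of *COL1A1* (60.2 ± 5.39) likewise overlapped both that of *MMP15* (57.1 ± 2.14) and that of *LAMC1* (61.0 ± 0.255), so that these neighbours in the order did not differ beyond their spread. *COL1A1*, a chain of fibril-forming type I collagen, was present at 56.0 TPM, whereas its partner chain *COL1A2* was below the minimum. Of 12 laminin chains 6 were below the minimum, and *LAMA5* was the α chain that was not. Of the MMPs, 15 were below it against 7 kept. *MMP1* had 1 count in 1 library and 0 in the other 8. *MMP2*, just inside the minimum, had 6, 4 and 7 counts in attached, 2, 14 and 9 in suspended vehicle and 17, 8 and 13 in AT-0174 libraries, and *MMP24*, just outside it, had 3 to 12 counts in the 9 libraries.

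Forced suspension was compared with attached culture to ask which matrix genes respond to loss of attachment. With vehicle in both, 24 of the 47 genes passed an adjusted p of 0.05, 20 lower and 4 higher in suspension. Among all 15528 genes 21.2% were called, 10.8% lower and 10.4% higher, so that the share of matrix genes called lower (42.6%) was above the background and the share called higher (8.51%) was not. The genes were chosen with earlier results of these data known, so these shares are a description and not independent support. The median log2 fold change was -0.226 over the 47 genes and -0.000253 over all genes. Collagens and laminins took most of the falls, with 7 of 14 collagen chains and 5 of the 5 laminin chains described here called lower, and 1 collagen chain called higher. The summed level of the 47 genes overlapped between the groups, at 1624 to 1652 TPM in attached and 1552 to 1653 TPM in suspended vehicle cells. That sum includes *THBS1*, the most abundant gene, which was higher in suspension. *THBS1* was at 508 ± 22.0 TPM in attached and 641 ± 65.1 TPM in suspended vehicle cells (mean ± SD). The overlap of the sum therefore does not show that the other genes were level. In such bulk libraries, fewer cells that express a gene and less RNA per cell cannot be told apart. With counts rebuilt from TPM, which take account of transcript length in each library, 13 genes were called, 12 lower and 1 higher. The calls that ended there were those of *COL4A5*, *COL7A1*, *COL9A2*, *COL9A3*, *LAMB3*, *P4HA2*, *MMP14*, *MMP15*, *MMP16*, *ADAMTS4* and *ADAMTS13*. The share of all genes called in that fit is not given here. The count therefore does not show whether matrix genes lost calls more than all genes did.

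**Figure D1:**
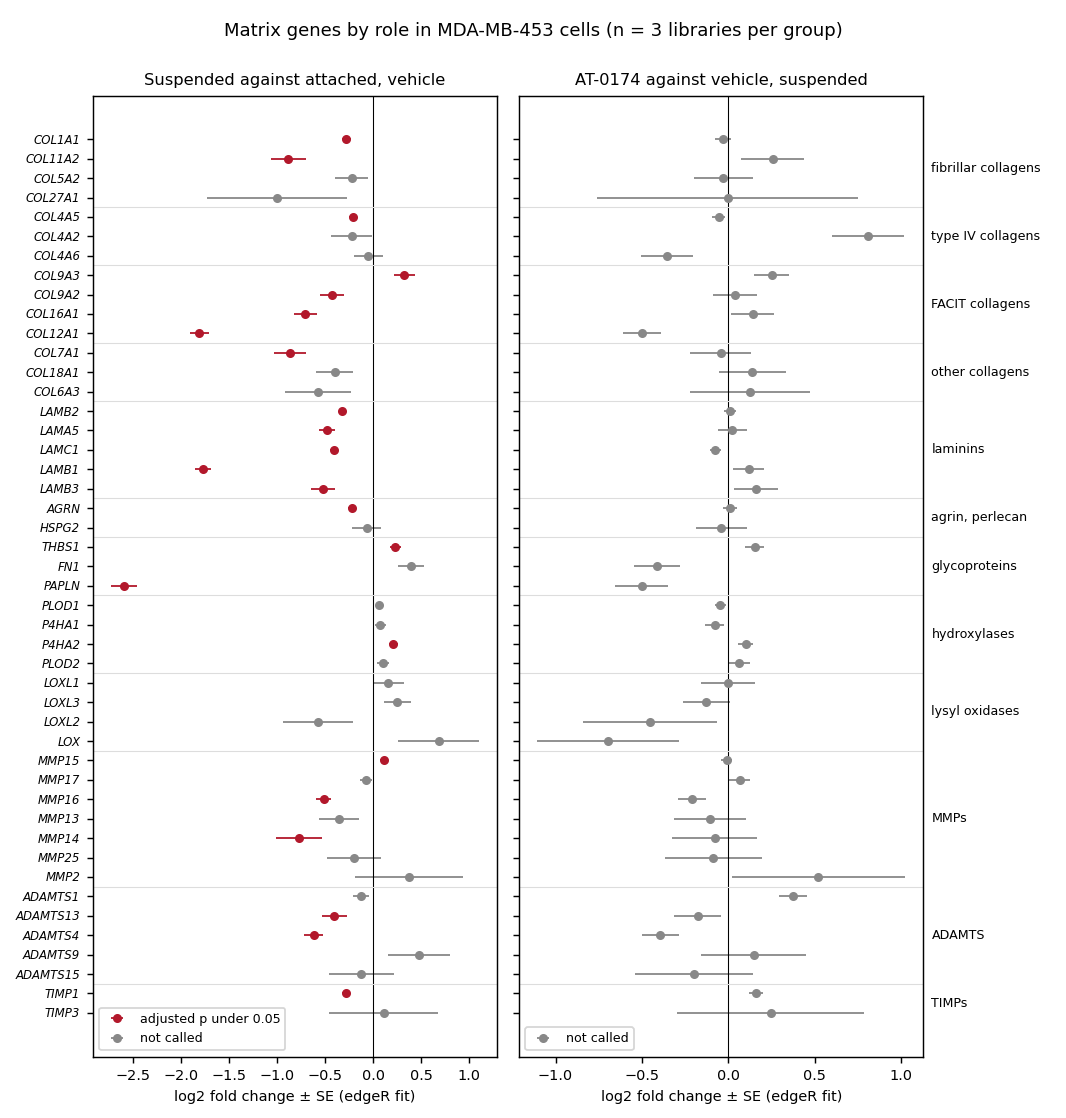
The log2 fold change of 46 genes with its SE from the edgeR fit is plotted by role, for suspension against attached culture with vehicle (left) and AT-0174 against vehicle in suspension (right), on axes of different range. Red points passed an adjusted p of 0.05. All 5 laminins shown are red and lower on the left, and no gene is red on the right.

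The largest fall of the 47 genes was in *PAPLN*, which encodes papilin, a matrix glycoprotein related to the ADAMTS proteases. It was at 7.14, 6.81 and 7.18 CPM in attached cells, 1.29, 1.09 and 1.12 in suspended vehicle cells and 0.808, 0.908 and 0.748 with AT-0174. The attached libraries lay above every suspended library. The fold change was 6.05-fold lower (log2 -2.60 ± 0.13 SE, adjusted p = 1.96e-07). *COL12A1*, a FACIT collagen that sits on type I fibrils, fell from 12.6, 14.0 and 13.9 CPM in attached to 3.59, 4.42 and 3.48 CPM in suspended vehicle cells. It was 3.52-fold lower (log2 -1.81 ± 0.10, adjusted p = 3.16e-07).

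On GRCh38, in the GENCODE 44 annotation, *PAPLN* (ENSG00000100767) lies at chr14:73237497-73274640 on the plus strand and *COL12A1* (ENSG00000111799) at chr6:75084326-75206267 on the minus strand.

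Each of the 5 laminin chains described here was called lower. *LAMB1* (ENSG00000091136) lies at chr7:107923799-108003213 and *LAMA5* (ENSG00000130702) at chr20:62307955-62367312, both on the minus strand, *LAMC1* (ENSG00000135862) at chr1:183023420-183145592 on the plus strand and *LAMB2* (ENSG00000172037) at chr3:49121114-49133118 on the minus strand. The laminin β1 gene *LAMB1* was at 24.8, 25.3 and 22.0 CPM in attached cells against 7.36, 7.48 and 6.26 in suspended vehicle cells, 3.42-fold lower (log2 -1.77 ± 0.08, adjusted p = 9.81e-08). The other chains fell less. *LAMC1*, the γ1 chain, was at 108, 109 and 108 CPM and then 82.7, 79.8 and 82.2 (log2 -0.41 ± 0.03, adjusted p = 1.04e-05). *LAMA5*, the α5 chain, was at 263, 264 and 328 CPM and then 190.0, 214 and 208 (log2 -0.48 ± 0.08, adjusted p = 0.00238), with attached replicate 3 above the other 2. *LAMB2*, the β2 chain, was at 528, 538 and 564 CPM and then 426, 436 and 441 (log2 -0.32 ± 0.03, adjusted p = 0.000101). No attached library overlapped a suspended vehicle library for any of these 4 chains. *LAMB3*, the β3 chain, fell from a low level of 4.17 to 5.20 CPM to 2.98 to 3.54 CPM (log2 -0.53 ± 0.13, adjusted p = 0.0123), and was not called with counts rebuilt from TPM (log2 -0.35, adjusted p = 0.416). The α3 gene *LAMA3* had at most 2 counts in a library. Summed over these 5 chains, laminin was at 463.5 to 528.7 TPM in attached, 334 to 348 in suspended vehicle and 316 to 370 TPM in AT-0174 libraries. That sum includes transcripts that are not protein coding. In protein-coding transcripts alone *LAMB2* was at 108, 109 and 111 TPM in attached and 95.9, 103 and 103 in suspended vehicle libraries. *LAMA5* was at 31.4, 32.5 and 38.6 TPM and then 25.1, 28.8 and 27.3 in such transcripts.

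**Figure D2:**
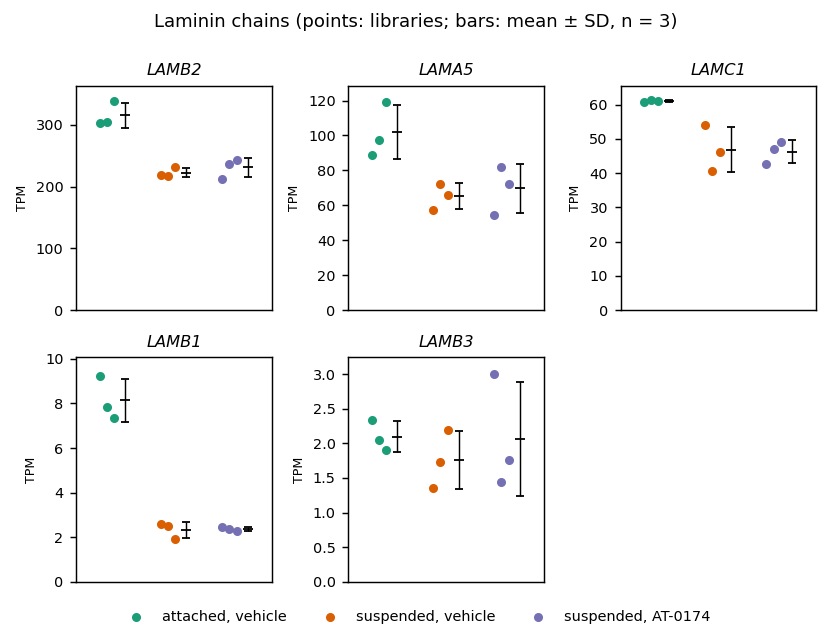
The level of 5 laminin chains is plotted in TPM by library (points) with the mean ± SD of the 3 libraries of each group (bars). The TPM is that of all annotated transcripts, coding or not. In *LAMB2*, *LAMA5*, *LAMC1* and *LAMB1* every attached library lies above every suspended library, with or without AT-0174, whereas *LAMB3* overlaps on this scale.

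Among fibrillar collagens *COL1A1* was at 131, 132 and 149 CPM in attached and 112, 113 and 114 CPM in suspended vehicle cells (log2 -0.28 ± 0.05, adjusted p = 0.00182), and *COL11A2*, a minor fibril chain, fell from 5.15 to 7.18 CPM to 2.61 to 3.87 (log2 -0.89 ± 0.18, adjusted p = 0.00542). *COL5A2* (log2 -0.23 ± 0.17) and *COL27A1* (log2 -1.001 ± 0.73) did not pass the test. Of the type IV collagens, *COL4A5* was at 60.8, 61.2 and 64.6 CPM and then 52.8, 54.2 and 54.0 (log2 -0.21 ± 0.04, adjusted p = 0.00364). Per length it did not differ in this way, at 22.2 ± 1.58 TPM in attached and 22.5 ± 1.83 in suspended vehicle cells (SD, n = 3), and with counts rebuilt from TPM its log2 fold change was -0.08 (adjusted p = 0.544). *COL4A6*, which starts head to head with it on chromosome X, was at log2 -0.05 ± 0.15. *COL4A2* was at log2 -0.23 ± 0.22 (0.014 with counts rebuilt from TPM). The anchoring fibril collagen *COL7A1* was at 22.1, 21.7 and 31.8 CPM and then 13.1, 13.1 and 15.2 (log2 -0.87 ± 0.17, adjusted p = 0.00421). *COL18A1*, a basement membrane collagen (log2 -0.40 ± 0.19, adjusted p = 0.163), and *COL6A3*, a microfibril chain (log2 -0.57 ± 0.34, adjusted p = 0.266), did not pass. Among FACIT collagens *COL16A1* fell by 0.71 ± 0.12 on the log2 scale (adjusted p = 0.00222) and *COL9A2* by 0.43 ± 0.13 (adjusted p = 0.0316). *COL9A3*, another type IX chain, was higher, at 3.17 to 3.57 CPM in attached and 4.01 to 4.38 in suspended vehicle cells (log2 0.33 ± 0.11, adjusted p = 0.0459). The call of *COL9A3* did not hold without any 1 of the 6 libraries (adjusted p 0.0517 to 0.138). That of *COL9A2* did not hold without attached replicate 1 or 2 or suspended vehicle replicate 1 or 3 (adjusted p 0.0683 to 0.109).

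*THBS1* was higher in suspension, at 1796, 1817 and 1640.3 CPM in attached and 2116, 2168 and 1876 in suspended vehicle cells (log2 0.23 ± 0.05, 1.17-fold, adjusted p = 0.0115). The groups did not overlap, although without suspended vehicle replicate 2 the adjusted p was 0.0528. *FN1*, which encodes fibronectin, was at 2.91 to 4.13 CPM and then 4.23 to 4.92, and did not pass the test (log2 0.39 ± 0.14, adjusted p = 0.0573). It passed without attached replicate 1 (adjusted p = 0.0249). *SPARC* and *NID1* had at most 2 counts in any library. *AGRN* fell from 630.3, 658 and 671 to 527, 579 and 578 CPM (log2 -0.22 ± 0.04, adjusted p = 0.00332), and the perlecan gene *HSPG2* was at log2 -0.07 ± 0.15.

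Of the 4 collagen hydroxylases and 4 lysyl oxidases, 1 was called higher and 0 lower. Among all genes 10.4% were called higher and 10.8% lower, so counts from so few genes do not set these roles apart. The prolyl hydroxylase gene *P4HA2* was at 32.4, 31.1 and 29.9 CPM in attached and 36.5, 34.9 and 36.6 in suspended vehicle cells (log2 0.21 ± 0.04, adjusted p = 0.00648). With counts rebuilt from TPM its log2 fold change was 0.13 (adjusted p = 0.334). *PLOD1* (log2 0.06 ± 0.03), *P4HA1* (0.07 ± 0.06) and *PLOD2* (0.10 ± 0.06) did not pass the test. None of the 4 lysyl oxidases passed either. The most abundant of them, *LOXL1*, was at 2.85 to 3.76 CPM in attached and 3.07 to 4.28 in suspended vehicle cells, and the remaining 3 had values of 0.104 to 3.02 CPM over the 9 libraries. Of 17 other genes of collagen maturation on the wider list, 4 were called lower and 0 higher (23.5% lower, against 10.8% of all genes). They were *PCOLCE*, which enhances procollagen processing (log2 -0.45 ± 0.11, adjusted p = 0.0113), *BMP1*, a procollagen C-proteinase (-0.33 ± 0.09, 0.0172), *FKBP10*, a collagen chaperone (-0.26 ± 0.05, 0.00418), and *P3H4* (-0.12 ± 0.04, 0.0362). These 4 were named after their values were seen. Over the 17 genes the median log2 fold change was -0.0157, with 7 values higher and 10 lower. Counts from so few genes do not set this role apart either.

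Of 12 MMP and ADAMTS genes, 4 were called lower (33.3%, against 10.8% of all genes) and 1 higher (8.33%, against 10.4%). None of these 5 calls held with counts rebuilt from TPM, where *MMP14* was at an adjusted p of 0.393 and *MMP15* at 0.0939. *MMP16*, a membrane-type MMP, was at 12.3, 11 and 12.4 CPM and then 8.09, 8.61 and 8.28 (log2 -0.52 ± 0.08, adjusted p = 0.00115), and *ADAMTS4*, an aggrecanase, at 6.77, 7.19 and 8.11 and then 4.99, 4.44 and 4.94 CPM (log2 -0.62 ± 0.10, adjusted p = 0.00174). The attached and suspended vehicle libraries did not overlap for either gene, but with counts rebuilt from TPM neither was called (*MMP16* at log2 -0.45, adjusted p = 0.23, and *ADAMTS4* at -0.75, adjusted p = 0.0552). *MMP14*, a membrane-type collagenase, was low at 1.88, 1.024 and 1.67 CPM and then 0.879, 0.907 and 0.888 (log2 -0.78 ± 0.24, adjusted p = 0.0358). *ADAMTS13*, which cuts von Willebrand factor, was at log2 -0.40 ± 0.13 (adjusted p = 0.0482), but at -0.063 with counts rebuilt from TPM (adjusted p = 0.86), and DESeq2 did not call it (adjusted p = 0.0595). *MMP15*, the most abundant MMP, was higher by a small amount, at 159.9, 161 and 157 CPM and then 169, 174 and 172 (log2 0.11 ± 0.03, adjusted p = 0.0390). The calls of these 3 genes did not hold without some libraries. For *MMP14* these were attached replicate 1 or 3 or any suspended vehicle replicate (adjusted p 0.0826 to 0.134), for *ADAMTS13* attached replicate 2 or 3 or any suspended vehicle replicate (0.0800 to 0.161) and for *MMP15* any attached replicate or suspended vehicle replicate 2 or 3 (0.0673 to 0.112). *MMP17*, *MMP13*, *MMP25*, *MMP2*, *ADAMTS1*, *ADAMTS9* and *ADAMTS15* did not pass. *TIMP1*, the main inhibitor here, fell from 41.9, 41.4 and 39.8 to 33.8, 33.8 and 33.2 CPM (log2 -0.29 ± 0.04, adjusted p = 0.000574), and *TIMP3* (0.103 to 0.521 CPM over the 9 libraries) did not pass.

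A second comparison asked what AT-0174 changed in cells that were already in suspension. Of the 47 matrix genes 0 passed an adjusted p of 0.05 in edgeR's quasi-likelihood test, against 0.779% of all genes, 0.522% higher and 0.258% lower. With so small a share over all genes, a count of 0 does not set the 47 genes apart. At an unadjusted p under 0.05 there were 13 of 47 genes, a larger share than the 9.02% of all genes. DESeq2 called 2 and limma-voom called 0, without the share of all genes in either fit. The median log2 fold change was -0.00461 over the 47 genes. These 5 laminin chains were at log2 -0.07 to 0.16 and their summed levels overlapped between the groups. The SEs of the abundant genes were small, with *LAMB2* at log2 0.01 ± 0.03, *LAMA5* at 0.02 ± 0.08 and *AGRN* at 0.01 ± 0.04.

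The genes nearest to the threshold with AT-0174 moved in different directions. *COL12A1* was at 3.59, 4.42 and 3.48 CPM with vehicle and 2.80, 2.65 and 2.67 with AT-0174 (log2 -0.50 ± 0.11, adjusted p = 0.0621). *ADAMTS1*, a protease of aggrecan and versican, was at 16.6, 17.6 and 14.3 CPM and then 20.2, 23.2 and 19.6 (log2 0.37 ± 0.08, adjusted p = 0.0646). Neither pair of groups overlapped. *COL12A1* and *ADAMTS1* were the genes that DESeq2 called, at adjusted p = 0.0318 and 0.00435, and over all alternatives their adjusted p ran from 0.00745 to 0.941 and from 2.08e-06 to 0.728. *ADAMTS1* also passed with the replicate number as a block (adjusted p = 0.00699). *TIMP1* was at 33.8, 33.8 and 33.2 CPM with vehicle and 38.1, 36.6 and 37.9 with AT-0174 (log2 0.16 ± 0.04, adjusted p = 0.108). *COL4A2* was at 0.698, 0.771 and 0.592 CPM and then 1.28, 1.15 and 1.18 (log2 0.81 ± 0.21, adjusted p = 0.134). *ADAMTS4* was at log2 -0.39 ± 0.11 (adjusted p = 0.158), *PAPLN* at -0.50 ± 0.15 (0.242), *FN1* at -0.41 ± 0.13 (0.282), *THBS1* at 0.15 ± 0.05 (0.370) and *MMP16* at -0.21 ± 0.08 (0.429). A p above the threshold does not show that these genes were alike in the 2 groups.

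**Figure D3:**
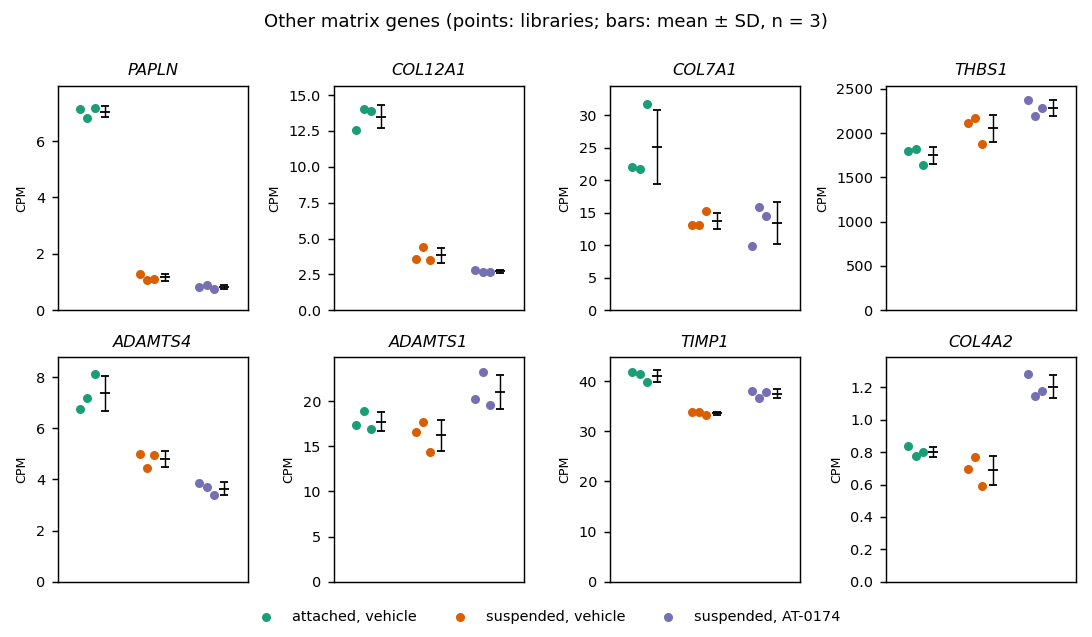
CPM of 8 matrix genes is plotted by library (points) with the mean ± SD of the 3 libraries of each group (bars). *PAPLN*, *COL12A1*, *COL7A1* and *ADAMTS4* are highest in the attached libraries and *THBS1* is lowest there, and in *ADAMTS1*, *TIMP1* and *COL4A2* the AT-0174 libraries lie above the suspended vehicle libraries.

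Suspended cells with AT-0174 were also set against attached cells with vehicle, a contrast that differs in both culture and drug and shares libraries with each of the others. It called 22 of the 47 genes, 18 lower and 4 higher, against 24% of all genes, 11.8% lower and 12.2% higher. *PAPLN* was 8.56-fold lower (log2 -3.10 ± 0.14, adjusted p = 3.23e-08), *COL12A1* 4.98-fold lower (log2 -2.32 ± 0.10, adjusted p = 3.23e-08) and *LAMB1* 3.15-fold lower (log2 -1.66 ± 0.08, adjusted p = 1.19e-07). *ADAMTS4* was at log2 -1.01 ± 0.10 (adjusted p = 5.21e-05) and *THBS1* at 0.38 ± 0.05 (0.000551). The genes called higher were *COL9A3* (log2 0.58 ± 0.10), *THBS1*, *P4HA2* (0.31 ± 0.04) and *ADAMTS1* (0.25 ± 0.08, adjusted p = 0.0482). *LAMB3* (log2 -0.36 ± 0.13, adjusted p = 0.0519) did not pass here, and *TIMP1* was closer to the attached level (log2 -0.13 ± 0.04, adjusted p = 0.0293). With counts rebuilt from TPM the calls of *P4HA2*, *COL11A2*, *COL7A1*, *MMP14*, *COL16A1*, *COL9A2*, *ADAMTS1* and *TIMP1* ended (adjusted p 0.0523 to 0.232). Leaving out 1 library ended 5 calls, those of *COL11A2*, *MMP14*, *COL9A2*, *ADAMTS1* and *TIMP1*. *COL11A2* did not pass without attached replicate 3 or AT-0174 replicate 1 or 3 (adjusted p 0.0563 to 0.102), and *MMP14* without attached replicate 1 or 3 or AT-0174 replicate 1 or 3 (0.0603 to 0.0864). *COL9A2* did not pass without attached replicate 1 or 2 or any AT-0174 replicate (0.0559 to 0.131), *ADAMTS1* without attached replicate 1 or 3 or AT-0174 replicate 1 or 2 (0.0733 to 0.170), and *TIMP1* without attached replicate 1 or 2 or any AT-0174 replicate (0.0538 to 0.0976).

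The transcript estimates showed that for several of these genes most of the signal was not in coding transcripts. Salmon divides a gene's counts among its annotated transcripts, and the 47 genes had 482, of which 207 are annotated as protein coding and 169 as retained intron in GENCODE 44. The transcript with the highest mean TPM was protein coding in 38 genes and of another type in 9. The share of a gene's TPM in protein-coding transcripts had a mean of at least 90% in 16 genes and under 10% in 4, which were *COL4A2* (0.0665%), *COL9A3* (0.252%), *COL7A1* (7.57%) and *COL6A3* (9.64%). The leading transcript of *COL9A3* was 993 bases long and that of *COL4A2* 679 bases, both annotated without a defined coding sequence, and that of *COL7A1* was a retained intron transcript of 5807 bases. The differences of *COL9A3* and *COL4A2* given above are therefore those of short transcripts with no annotated coding sequence. *COL1A1* (93.8%), *TIMP1* (100%), *MMP15* (100%) and *P4HA1* (99.7%) had nearly all of their signal in coding transcripts.

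The coding share of *LAMB2*, *LAMA5* and *AGRN* was lower in the attached than in the suspended vehicle libraries. In *LAMB2* it was 32.6% to 35.9% in attached, 43.9% to 47.4% in suspended vehicle and 39.1% to 45.8% in AT-0174 libraries, and in *LAMA5* 32.4% to 35.4%, 39.9% to 43.7% and 34.4% to 45.6%. *AGRN* was at 63.1% to 70.1%, 75.0% to 78.4% and 72.4% to 83.6%. Its TPM in coding transcripts overlapped, at 113, 117 and 114 in attached and 101, 115 and 115 in suspended vehicle libraries. The attached and suspended vehicle ranges of the coding share were also apart in other genes. *COL7A1*, *P4HA2* and *PLOD1* were likewise lower in attached libraries, and *ADAMTS1*, *HSPG2* and *COL6A3* were higher there. With AT-0174 the range of *LAMA5* overlapped that of attached cells. *LAMC1* (38.6% to 44% in attached and 38.7% to 48.8% in suspended vehicle libraries) and *LAMB1* (45.6% to 52.0% and 47.8% to 58.2%) overlapped between these cultures, and *LAMB3* was at 100% in every library. A fit on counts of protein-coding transcripts alone, chosen after the data had been seen, tested 43 of the 47 genes and called 17 in suspension against attached culture with vehicle, 15 lower and 2 higher, against 16.7% of all 12270 genes in that fit (8.51% lower and 8.22% higher), and all 17 were among the 24 called before. These 5 laminin chains were called lower in it, with *LAMB3* at log2 -0.55, *LAMB1* at log2 -1.75, *LAMC1* at -0.42, *LAMA5* at -0.48 and *LAMB2* at -0.26. *AGRN* was also called lower in that fit (log2 -0.20, adjusted p = 0.00926). *COL7A1* (adjusted p = 0.136), *COL16A1* (0.421), *COL9A2* (0.0774), *MMP14* (0.759), *MMP15* (0.0972) and *ADAMTS13* (0.330) were tested and not called, and *COL9A3* was not tested. With AT-0174 against vehicle it called 0 of 43 genes, against 0.742% of all genes in it.

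**Figure D4:**
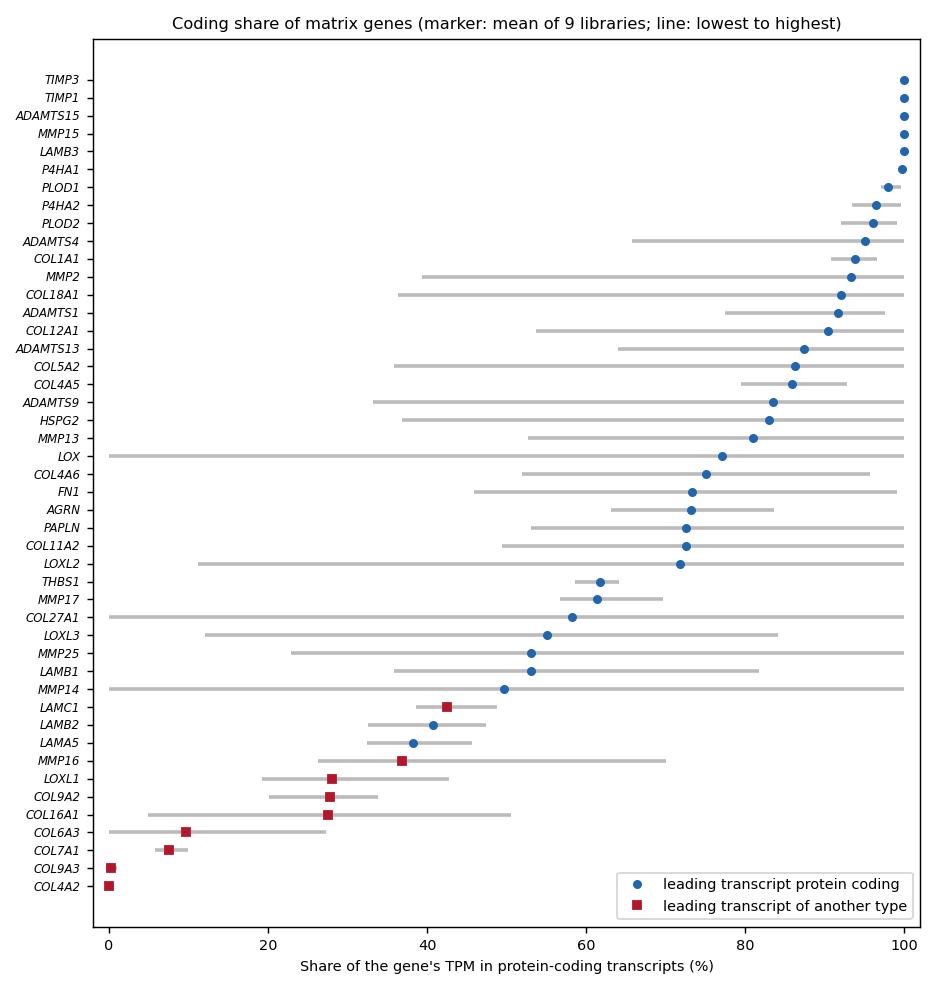
The share of TPM in protein-coding transcripts is plotted for 46 genes as the mean of the 9 libraries (marker) with the range from the lowest to the highest library (line). *COL4A2*, *COL9A3*, *COL7A1* and *COL6A3* lie under 10%, and red squares mark the 9 genes whose leading transcript is of another type.

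Some genes share exons with a neighbor on the opposite strand, and the counting is not stated to use strand. *SLC19A1*, at a mean of 1770 counts, overlaps 18.5% of the exon bases of *COL18A1*, which had a mean of 64.2 counts. *HTRA2* overlaps 20.7% of *LOXL3* and *MMP25-AS1* 30.6% of *MMP25*. The values of these 3 genes are uncertain for that reason. In *LAMA5* and *LAMB1* the overlap was 1.71% (*ADRM1*) and 1.61% (*DLD*) of exon bases. *DLD* had a mean of 2430 counts against 515 for *LAMB1*, and *ADRM1* 7740 against 9550 for *LAMA5*. Small overlaps with more abundant neighbors were also present in *COL9A3* (*TCFL5*, 501 counts against 176) and *LOX* (*SRFBP1*, 679 against 11). *LOXL2* had one on the same strand (*ENTPD4*, 971 against 13.9). What these overlaps added to the counts of the matrix genes was not tested.

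A wider list of 100 other matrix genes held other collagen-processing enzymes and chaperones, other matrix proteins and receptors, and other matrix proteases, and 61 were tested. This list was also drawn up with earlier results of these data known, so its shares are a description only. In suspension against attached culture 19 were called (31.1%, against 21.2% of all genes), 14 lower (23.0%, against 10.8%) and 5 higher (8.2%, below the 10.4% of all genes), with a median log2 fold change of -0.0372. Without attached replicate 3 there were 12 calls, 8 lower and 4 higher. The lower genes with the smallest p were *FREM2*, a basement membrane protein, at 57.3, 60.7 and 54.4 CPM and then 33.4, 36.4 and 29.1 (log2 -0.80 ± 0.09, adjusted p = 0.000128), *BCAM*, a receptor for laminin α5, at 169, 177 and 195 and then 131, 118 and 127 CPM (log2 -0.52 ± 0.06, adjusted p = 0.000161), and *LTBP1*, which holds latent TGFβ in the matrix (log2 -0.31 ± 0.04, adjusted p = 0.000564). Each was lower in 3 of 3 suspended vehicle libraries than in any attached library. The higher genes were *VCAN*, the proteoglycan versican (log2 0.39 ± 0.05, adjusted p = 0.000414), *SDC1*, the cell surface proteoglycan syndecan 1 (0.31 ± 0.04, 0.000736), and *FURIN*, a convertase that activates membrane-type MMPs (0.25 ± 0.04, 0.00136). With AT-0174 against vehicle 1 of the 61 was called (1.64%, against 0.779% of all genes). This was *FURIN*, at 86.6, 83.7 and 84.2 CPM with vehicle and 75.3, 70.2 and 77.1 with AT-0174 (log2 -0.19 ± 0.04, adjusted p = 0.0445), against 72.8, 69.8 and 70.8 in attached cells. The call of *FURIN* did not hold without any 1 suspended vehicle replicate or without AT-0174 replicate 1 or 2 (adjusted p 0.0881 to 0.171). AT-0174 in suspension against attached culture called 18 (29.5%, against 24% of all genes), of which 13 were lower and 5 higher, and there *SDC4*, syndecan 4, was at log2 0.27 ± 0.04 (adjusted p = 0.00081).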

How the data were processed

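RNA from 9 cultures of MDA-MB-453 cells was sequenced. Per the labels a SMARTER mRNA kit was used, whereas the study's methods name a NuGEN kit. The authors trimmed reads (Trim Galore 0.6.7, cutadapt 3.4), aligned them to GRCh38 with STAR 2.7.9a and quantified them with Salmon 1.10.1. They deposited estimated counts per gene and transcript, TPM per gene and transcript and effective lengths, a score in bases. Whether counting used strand is not given in the sources used here.

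Estimated counts were rounded and tested with edgeR 4.0.16 (quasi-likelihood, TMM, filterByExpr), all 9 libraries in 1 fit, with Benjamini-Hochberg adjustment over 15528 genes and a threshold of 0.05. SE is the log2 fold change divided by the root of F. The study used limma, which was run as an alternative (limma-voom 3.58.1), as was DESeq2 1.42.0. The script was tested on simulated data. CPM used TMM-scaled library sizes. Transcript types and gene positions are from GENCODE 44. Depth was 36649997 to 48019126 counts per library.

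The genes and lists were chosen with earlier results of these data known. Genes named were up to 15 called per direction and comparison by size of change, the most abundant of each role, *MMP1* and *MMP2*, those just inside and outside the minimum, and of the wider list up to 3 per direction. *COL4A2*, *FN1*, other genes that were not called and 4 of the wider list (*PCOLCE*, *BMP1*, *FKBP10* and *P3H4*) were named after their values were seen. The fit on protein-coding transcripts was chosen after seeing the data. Replicates differed by more than sampling noise (mean chi-square per gene 3.14 to 17.7). The 47 genes were all tested and are all in the counts, but the values of 1 of them are not reported here.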

Additional observations from a re-analysis of the deposited data

How the results depend on the processing

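In suspension against attached culture with vehicle, 24 of the 47 matrix genes were called. The count was 13 with counts rebuilt from TPM and 9 with a minimum of 1.5-fold, 16 to 25 in the other fits and thresholds, and 18 to 21 on leaving out 1 library. Of the 24 calls, 17 held on leaving out any 1 library and 11 held in every planned fit as well. For AT-0174 against vehicle in suspension the count of 0 became 2 with DESeq2 (*COL12A1* and *ADAMTS1*), 3 without a filter on low counts (*THBS1*, *COL12A1* and *ADAMTS1*) and 1 with the replicate block (*ADAMTS1*), and was 0 on leaving out any 1 library. For AT-0174 in suspension against attached culture the count of 22 was 8 with a minimum of 1.5-fold and 17 to 21 on leaving out 1 library. On the wider list, 19 calls in suspension against attached culture became 12 with counts rebuilt from TPM, 11 at an adjusted p of 0.01 and 4 with a minimum of 1.5-fold, and 12 to 19 on leaving out 1 library. The 1 call with AT-0174 against vehicle became 3 with DESeq2, 2 with limma-voom, 5 without a filter, 3 with at least 10 counts in every library and 0 with only the 6 libraries of the comparison, with counts rebuilt from TPM, with protein-coding transcripts, at an adjusted p of 0.01 or with a minimum of 1.5-fold, and 0 to 2 on leaving out 1 library. AT-0174 in suspension against attached culture had 18 calls there, 10 at an adjusted p of 0.01 and 4 with a minimum of 1.5-fold. The causes were not tested, other than that stricter thresholds call fewer genes. Apart from the protein-coding fit, the share of all genes called under each alternative is not given here or above. These counts therefore do not show whether matrix genes lost or gained calls more than all genes did.

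Among the genes followed through the alternatives, values that changed sign were small in the edgeR fit described above or came from low counts, and none of the called values did. In *COL16A1* and *FN1* the value with the other sign was itself not small. Other genes, not called, also changed sign with protein-coding transcripts. In suspension against attached culture *LOXL3* went from log2 0.25 to -0.51 and *MMP25* from -0.20 to 0.33. For AT-0174 against vehicle *LOXL3* went from -0.13 to 0.63. In suspension against attached culture the log2 fold change was -0.056 for *LOXL1* and 0.014 for *COL4A2* with counts rebuilt from TPM, and -0.18 to 0.79 for *MMP2* on leaving out 1 library. For AT-0174 against vehicle with counts rebuilt from TPM it was 0.0038 for *COL7A1*, -0.088 for *COL9A2*, 0.020 for *LAMC1*, 0.059 for *LOXL1* and -0.068 for *MMP2*. *LOXL1* was at 0.0024 without a filter and 0.0048 with the replicate block. With protein-coding transcripts *COL16A1* was at -0.65 and *LAMB2* at -0.013. On leaving out 1 library *MMP15* was at -0.043 to 0.0091, *COL7A1* at -0.19 to 0.14, *LAMA5* at -0.046 to 0.083, *COL9A2* at -0.050 to 0.13, *LAMB2* at -0.019 to 0.026, *AGRN* at -0.040 to 0.027 and *LOXL1* at -0.13 to 0.11. For AT-0174 in suspension against attached culture *PLOD1* was at -0.014 with protein-coding transcripts and -0.0033 to 0.026 on leaving out 1 library, and *FN1* was at 0.34 with counts rebuilt from TPM and -0.14 to 0.11 on leaving out 1 library.

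The replicate numbers are shared between groups, but same-numbered libraries did not deviate together (correlations of -0.0652 to 0.0526), so they were not taken as pairs. With the replicate number as a block, 21, 1 and 21 matrix genes were called in the 3 comparisons, again without the share of all genes in that fit. With 3 cultures per group, small changes and genes below about 1 CPM are measured with wide error.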
